A study of Arabidopsis thaliana with 9 samples.

Results

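NAC transcription factor genes were followed in Arabidopsis thaliana seedlings of the lines labelled OXmiR400 and OXrPPR1 and of wild type (WT), with 3 mRNA sequencing libraries each. The sample titles carry Colombia in all 3 genotypes, followed by YK2 for OXmiR400 and 1C9 for OXrPPR1. The genes were chosen by their description in the deposited table, which had to name a NAC domain containing protein or a NAC (No Apical Meristem) domain. This gave 82 genes of the 26973 in the table, after ANAC013, ANAC017, ANAC053 and ANAC078 were left out by the rule. Every seedling sampled had been kept for 6 h with cadmium, a toxic metal, at 100 µM. Libraries without the metal were not analysed here, and all contrasts are between genotypes under cadmium. OXmiR400 is named for miR400, a microRNA whose known targets encode pentatricopeptide repeat (PPR) proteins, and OXrPPR1 for such a protein, PPR1. The labels give neither the promoter of the transgenes, nor the number of independent lines, nor whether replicates were grown apart. The p-values therefore measure only how far these samples spread, which may be technical.

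NAC proteins form a large family of plant transcription factors that share a DNA-binding NAC domain and differ in the regulatory region that follows it. Members pattern organ boundaries, build xylem vessels and the root cap, time leaf senescence, and respond to abscisic acid, DNA damage and unfolded protein. Several are kept at a membrane until a stress frees them, and several mRNAs are cleaved under the guidance of the microRNA miR164, so the RNA level is 1 of several steps at which a NAC factor is regulated.

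The miR164 sites are shown because several NAC mRNAs are known to be cleaved under its guidance. A match describes the letters only and is not evidence of cleavage. Mature miR164a, encoded identically by MIR164A and MIR164B, is given with its seed (bases 2 to 8) in capitals. A search of the mRNAs of all 82 genes in the TAIR10.1 annotation (RefSeq) for its complement, with at most 4 mismatches, found a site in 7 genes and none in 75. Each site lies in coding sequence within 1 exon, and capitals mark the bases that cannot form a Watson-Crick pair with miR164a, a G-U pair counted as a mismatch. ORE1 had 4 such bases, CUC1, CUC2 and AT3G12977 had 3, and NAC1, ANAC079 and ANAC100 had 2. On the plus strand of TAIR10.1 lie the sites of ANAC079 (chr5:2436958-2436978), AT3G12977 (chr3:4145631-4145651) and CUC1 (chr3:5111137-5111157). On the minus strand lie those of NAC1 (chr1:20947142-20947162), ANAC100 (chr5:24701687-24701707), CUC2 (chr5:21902301-21902321) and ORE1 (chr5:15858797-15858817).
miR164a: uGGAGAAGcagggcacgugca
NAC1 site: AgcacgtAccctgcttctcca
ANAC079 site: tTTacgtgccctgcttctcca
ANAC100 site: tCTacgtgccctgcttctcca
AT3G12977 site: AgcaTgtAccctgcttctcca
CUC1 and CUC2 site: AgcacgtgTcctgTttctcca
ORE1 site: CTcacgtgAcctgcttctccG

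The 300 bases upstream of the annotated start are shown for ANAC044 and ANAC085, the genes with the largest fold change and the smallest p between OXmiR400 and WT. SOG1, the NAC factor at the centre of the plant DNA damage response, is known to bind the palindrome CTTNNNNNNNAAG, marked here in capitals. The motif reads the same on both strands. It begins 65 bases before the start of ANAC044 (promoter at chr3:228775-229074, plus strand, TAIR10.1) and 270 bases before that of ANAC085 (chr5:4672959-4673258, minus strand). It was found in the same window of 16 of the 82 NAC genes (19.5%) and of 2987 of 26512 annotated genes (11.3%), and not in that of ANAC103. A match describes the letters only and is not evidence of binding.
ANAC044 promoter: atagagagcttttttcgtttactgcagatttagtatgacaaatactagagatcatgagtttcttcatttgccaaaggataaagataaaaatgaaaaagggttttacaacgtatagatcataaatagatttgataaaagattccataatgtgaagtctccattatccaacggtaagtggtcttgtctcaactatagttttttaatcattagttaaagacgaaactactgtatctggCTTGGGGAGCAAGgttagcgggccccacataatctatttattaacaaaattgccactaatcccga
ANAC085 promoter: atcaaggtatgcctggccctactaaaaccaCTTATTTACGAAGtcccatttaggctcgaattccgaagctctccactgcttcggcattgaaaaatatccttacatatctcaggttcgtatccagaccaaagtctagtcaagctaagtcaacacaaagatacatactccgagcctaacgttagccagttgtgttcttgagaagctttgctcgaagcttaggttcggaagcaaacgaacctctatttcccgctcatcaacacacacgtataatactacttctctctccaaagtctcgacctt

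Mean levels ran from 0.0030 FPKM for AT1G60380 to 85.5 FPKM for VNI2. FPKM counts sequenced fragments or reads relative to exon length and library size, and was inferred as the unit from the values. The mean over the 9 libraries reached 10 FPKM in 20 genes, lay between 1 and 10 FPKM in 30 and stayed under 1 FPKM in 32. The 8 most abundant genes together held 51.1% of the family's summed FPKM, and the sum over the 82 genes was 620 to 696 FPKM in OXmiR400, 698 to 751 FPKM in OXrPPR1 and 693 to 781 FPKM in WT. VNI2, which represses vessel formation and prolongs leaf life, measured 105, 76.4 and 76.3 FPKM in OXmiR400, 109, 92.0 and 86.4 FPKM in OXrPPR1, and 65.2, 77.8 and 81.1 FPKM in WT. ORE1, a central activator of leaf senescence, measured 44.7, 50.6 and 62.6 FPKM in OXmiR400, 64.5, 68.6 and 65.8 FPKM in OXrPPR1, and 51.9, 55.9 and 73.4 FPKM in WT. VNI2 lay above ORE1 in each of the 9 libraries, and ORE1 overlapped ATAF2 within OXmiR400, OXrPPR1 and WT. After them in mean level came ATAF2, ANAC102, ORS1, ANAC082, ATAF1 and ANAC055, factors of stress, senescence and nucleolar stress, with each overlapping the next in FPKM across the 9 libraries.

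At the low end, 19 genes were listed at 0 in at least 1 library and 10 in at least 5. Several genes known from small cell groups averaged under 1 FPKM, whether or not they were listed at 0 in a library. Among them were the root cap regulators SMB, BRN1, BRN2 and FEZ, and the sieve element regulators ANAC045, ANAC086 and ANAC020. The boundary genes CUC2 and CUC3, and NST1 of fibre walls, also lay there. In whole seedlings, fewer cells of a type and less RNA per cell cannot be told apart. Only genes averaging 1 FPKM or more in some genotype were tested, which 53 NAC genes did and 29 did not. Of the 53, 47 passed in all 3 genotypes, ANAC060 and ANAC099 in both OXrPPR1 and WT, and CUC1, VND5, AT3G12910 and ANAC085 through OXmiR400 only, so that the last 4 could enter only by being higher there.

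**Figure D1:**
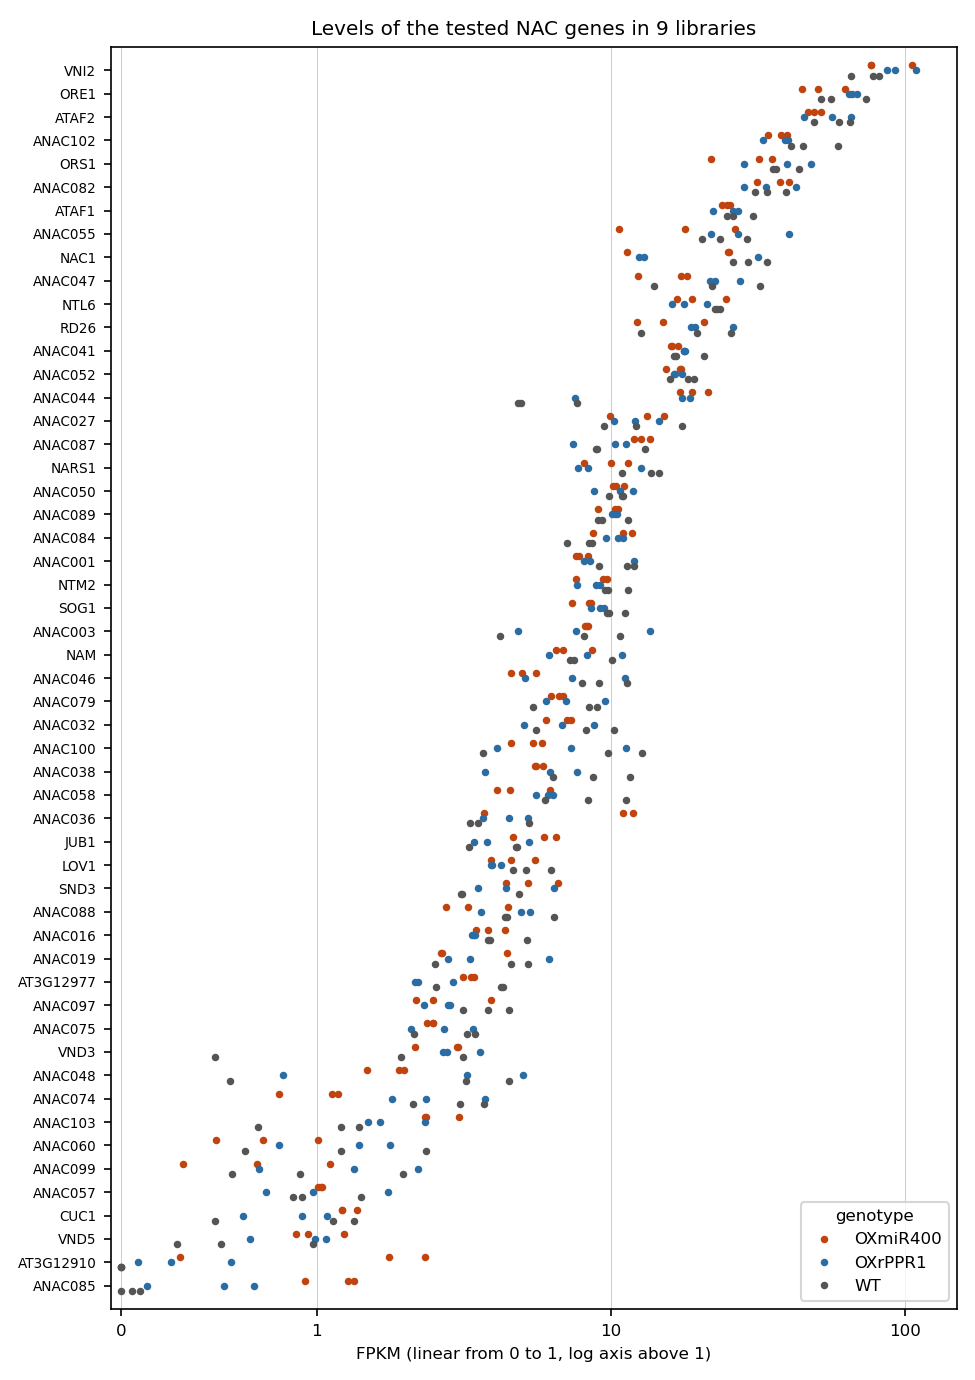
FPKM of the 53 tested NAC genes (rows, ordered by mean level) in the 9 libraries, 1 point per library, on an axis that is linear up to 1 and logarithmic above. Points of the genotypes interleave in most rows. Those of OXmiR400 and WT separate in 13 rows (24.5%, against 24.3% of all genes), 5 higher and 8 lower in OXmiR400. ANAC044, ANAC085 and AT3G12910 are among the 5 higher rows. ANAC085 and AT3G12910 passed the filter through OXmiR400 only.

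The genes are spread unevenly over the genome, with 25, 6, 20, 8 and 23 on chromosomes 1 to 5. There were 9 groups of neighbours within 20000 bases, which held 19 genes, among them the pairs NAM with ANAC019, ANAC046 with ANAC047, and ANAC055 with NARS1. How reads shared between similar copies were counted is not given in the sources used here. Another annotated gene overlaps 14 members, among them VNI2, ATAF2, ANAC102, ATAF1, NAC1, JUB1 and LOV1, whose partners lie on the opposite strand. The handling of strand is likewise not given, so reads of such partners cannot be told apart.

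Replicate spread differed widely between the NAC genes. The within-genotype standard deviation of log2(FPKM + 1) had a median of 0.243 over the 53 NAC genes and 0.187 over all 19955 genes tested. It was widest for ANAC048 (0.76), ANAC100 (0.60), NAC1 (0.56), ANAC003 (0.52) and ANAC036 (0.51), and narrowest for SOG1 (0.094), ANAC052 (0.096) and ANAC041 (0.11). ANAC052 and ANAC050 act with a histone demethylase in flowering control, and ANAC050 too stayed between 8.75 and 11.9 FPKM in all 9 libraries.

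Facts of the whole series bear on these values in a few ways. Low FPKM values stood on regular steps, each taken as 0.25 of a read or fragment (here a unit), which put the depth at 15600000 to 17100000 units in OXmiR400, 19300000 to 21100000 in OXrPPR1 and 12700000 to 17100000 in WT. MIR400 measured 629 to 953 FPKM in OXmiR400 and at most 0.572 FPKM in WT, and PPR1 21.9 to 25.5 FPKM in OXrPPR1 and 2.17 to 2.54 FPKM in WT, as labelled. Across genes, WT replicate 2 and OXrPPR1 replicates 1 and 3 correlated best with a library of another genotype (Pearson r = 0.9705 to 0.9745). Counts are therefore also given without these 3 libraries, an alternative chosen after the data were seen. It leaves WT with replicates 1 and 3 and OXrPPR1 with replicate 2 alone, so OXrPPR1 values under it rest on 1 library. Because libraries were removed for their likeness to another genotype, calls under it are not independent of that choice. All genes called in OXmiR400 against WT went from 114 to 477. Both seedling organs were represented, with 5 of 5 leaf markers and 11 of 12 root markers passing the filter.

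In OXmiR400 against WT, no NAC gene passed the test (adjusted p under 0.05 in limma, over all genes), and the closest were ANAC085, ANAC044 and ANAC103 of the DNA damage and protein folding responses, which lay higher in OXmiR400, and the cell death gene ANAC074, which lay lower. Of all genes tested, 114 were called (0.571%). At an unadjusted p under 0.05 there were 12 NAC genes, 22.6% of the 53 against 15.9% of all genes, 6 higher (6.71% of all genes) and 6 lower (9.19%). The libraries of the genotypes did not overlap for 13 NAC genes, 5 higher (10.8% of all genes) and 8 lower (13.5%), which together is 24.5% against 24.3%. Fold changes of 1 or more on the log2 scale, in either direction, were fitted for 3 NAC genes, ANAC044, AT3G12910 and ANAC085 (1.82% of all genes). ANAC085 and AT3G12910 stand among the higher genes in each of these counts, and both passed the filter through OXmiR400 only, which set their direction. Leaving out the 4 genes that passed in this way, 10 of 49 were past an unadjusted p of 0.05 (20.4%), 4 higher and 6 lower, 11 of 49 did not overlap (22.4%), and ANAC044 was the 1 gene past a log2 fold change of 1. AT3G12910 was listed at 0 in all WT libraries, and ANAC085 in 1, so their fitted folds depend on the pseudocount.

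ANAC044 and ANAC085 are the closest relatives of SOG1, are known targets of it and hold back the cell cycle after DNA damage. ANAC044 (AT3G01600, chromosome 3, 229075 to 231517, plus strand, TAIR10.1) measured 18.9, 17.1 and 21.3 FPKM in OXmiR400, 7.53, 17.4 and 18.5 FPKM in OXrPPR1, and 7.66, 4.94 and 4.83 FPKM in WT. Every OXmiR400 library lay above every WT library, as did 2 OXrPPR1 libraries, while OXrPPR1 replicate 1 lay within the WT range. The log2 fold change was 1.58 ± 0.30 in OXmiR400 against WT (SE, adjusted p = 0.0594 in limma). It was called without the 3 libraries named above (1.49, adjusted p = 0.0120), when only the 6 libraries of the comparison were fitted (adjusted p = 0.0102), and without OXrPPR1 replicate 1 or 3 (adjusted p = 0.0106 and 0.0444), libraries that enter this comparison only through the pooled spread. Over all alternatives its adjusted p ran from 0.0102 to 0.181 in limma.

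ANAC085 (AT5G14490, chromosome 5, 4670289 to 4672958, minus strand) was low throughout, at 1.28, 0.940 and 1.34 FPKM in OXmiR400, 0.133, 0.681 and 0.529 FPKM in OXrPPR1, and 0.0583, 0 and 0.0976 FPKM in WT. Rounded to whole units, these rest on 37, 25 and 37 in OXmiR400, 5, 24 and 17 in OXrPPR1, and 1, 0 and 2 in WT. The 3 genotypes did not overlap, with OXmiR400 highest and WT lowest. Against WT, OXmiR400 differed by a log2 value of 1.05 ± 0.20 (SE, adjusted p = 0.0541), and 3.12 with a pseudocount of 0.1 in place of 1. With median centring, no filter, no variance trend, only the 6 libraries compared, or without OXrPPR1 replicate 1 it was called, at adjusted p between 0.0313 and 0.0462, and over all alternatives the adjusted p ran from 0.0313 to 0.173. These were 5 of the 17 alternatives in which it was tested. Under the main filter the gene passed through OXmiR400 only, which set its direction, so its adjusted p-values are a description.

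ANAC103, a factor of the unfolded protein and DNA damage responses, measured 2.36, 2.34 and 3.05 FPKM in OXmiR400, 1.49, 2.33 and 1.63 FPKM in OXrPPR1, and 1.39, 0.701 and 1.21 FPKM in WT. Its libraries did not overlap in any of the 3 comparisons, and OXmiR400 differed from WT by 0.78 ± 0.19 on the log2 scale (SE, adjusted p = 0.0954). SOG1 itself lay the other way, with 8.55, 7.38 and 8.39 FPKM in OXmiR400, 8.52, 9.49 and 9.16 FPKM in OXrPPR1, and 9.81, 9.66 and 11.1 FPKM in WT. All 6 libraries of the lines lay below all WT libraries by a small margin, at -0.30 ± 0.11 on the log2 scale in OXmiR400 (SE, adjusted p = 0.214). SOG1 is known to be activated by phosphorylation, which RNA levels do not show. ANAC082, a mediator of nucleolar stress, and NTL6 (ANAC062), a membrane-released factor of unfolded protein, overlapped between OXmiR400 and WT. Of these 6 listed genes, 4 lay above 0 and 2 below against WT (median 0.42 on the log2 scale), and 3 above and 3 below without the 3 libraries named above. Without ANAC085, whose direction the filter set, 3 lay above 0 and 2 below, with a median of 0.063.

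**Figure D2:**
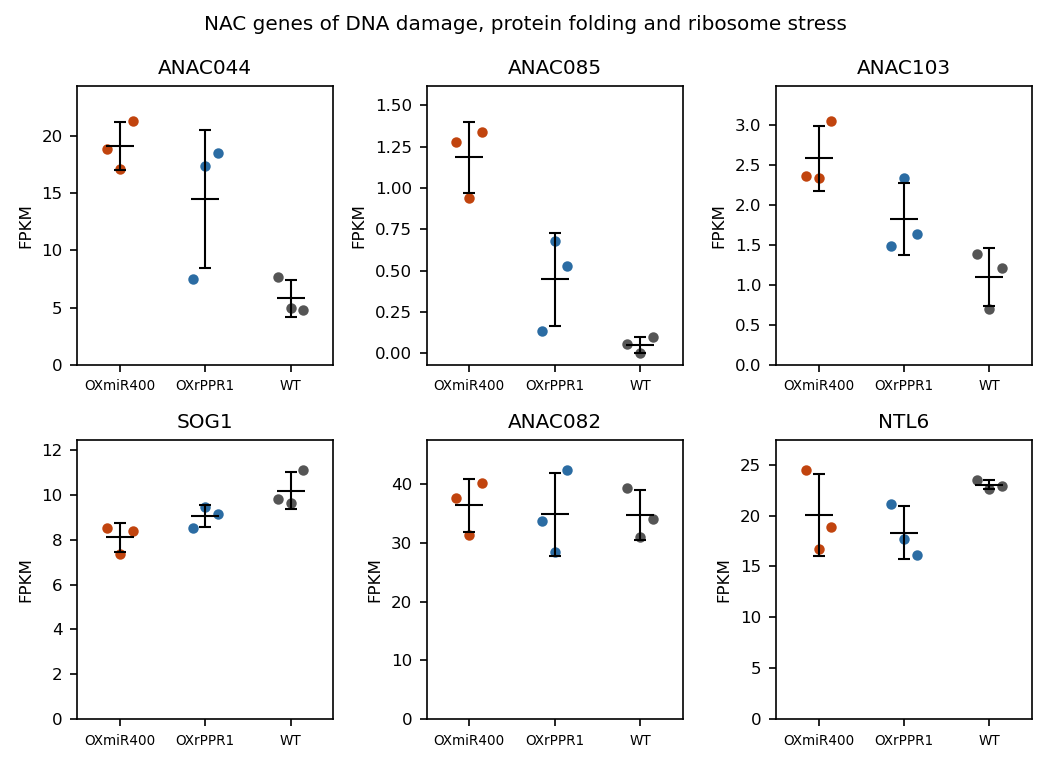
FPKM of the 6 NAC genes listed for DNA damage, protein folding and ribosome stress, by genotype, with 1 point per library and the mean ± SD (n = 3). ANAC044, ANAC085 and ANAC103 lie higher in OXmiR400 than in WT, and OXrPPR1 replicate 1 is the lowest OXrPPR1 point for each of these 3 genes.

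Of the 53 NAC genes, 37 had a log2 fold change below 0 in OXmiR400 (69.8%, against 53.1% of all genes). The median was -0.16, against -0.018 over all genes, and 35 genes lay below 0 with quantile normalization and 34 with median centring (66% and 64.2%, against 48.6% and 47.4% of all genes). Among the lower genes, ANAC074 (AT4G28530), known from programmed cell death in the stigma, measured 1.18, 0.806 and 1.12 FPKM in OXmiR400, 3.74, 2.34 and 1.81 FPKM in OXrPPR1, and 2.13, 3.69 and 3.08 FPKM in WT. The OXmiR400 libraries lay below all others, and the log2 fold change against WT was -0.95 ± 0.22 (SE, adjusted p = 0.0907). ANAC046, which promotes chlorophyll breakdown and cell death, measured 4.97, 4.56 and 5.57 FPKM in OXmiR400, 7.34, 11.2 and 5.11 FPKM in OXrPPR1, and 11.4, 7.95 and 9.11 FPKM in WT. Its OXmiR400 libraries lay below all WT libraries, at -0.79 ± 0.23 on the log2 scale (SE, adjusted p = 0.142), and it was called without the 3 libraries named above (-0.89, adjusted p = 0.0310, with a range of 0.031 to 0.379 over the alternatives).

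Other lower genes at an unadjusted p under 0.05 were ANAC058, ANAC001 and ANAC102, at log2 fold changes of -0.65, -0.40 and -0.35 (adjusted p = 0.171, 0.242 and 0.265). The ANAC102 value was -0.20 without WT replicate 3, and its counterpart in OXrPPR1 likewise -0.20. ANAC102, known from low-oxygen tolerance of germinating seed, measured 39.7, 34.1 and 37.8 FPKM in OXmiR400, 39.1, 32.8 and 40.1 FPKM in OXrPPR1, and 45.0, 41.0 and 59.0 FPKM in WT, and both lines lay wholly below WT. ANAC058 overlapped between OXmiR400 and WT through WT replicate 2. Markers of the root were also low in OXmiR400, where the 12 summed to 72.1 to 80.1 FPKM, against 104 to 140 FPKM in WT. Of the 11 root markers tested 10 lay below 0 and none passed (adjusted p = 0.0929 to 0.629), no marker was at 0 in all libraries, and their part in the lower NAC genes was not tested. The 5 leaf markers summed to 6489 to 8697 FPKM in OXmiR400 and 5225 to 5953 FPKM in WT, all with log2 fold changes above 0 (4 of 5 with quantile normalization) and none called.

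Outside the damage group, AT3G12910, ANAC036 and ANAC084 were higher at an unadjusted p under 0.05. AT3G12910, a NAC gene without a symbol in the table, measured 2.33, 1.75 and 0.304 FPKM in OXmiR400 and 0.564, 0.255 and 0.0899 FPKM in OXrPPR1, and was listed at 0 in every WT library (adjusted p = 0.119 in OXmiR400 against WT). OXmiR400 replicate 3, at 6 units, lay far below the other replicates, and without it the gene was called (adjusted p = 0.0477, with a range of 0.0477 to 0.35 over the alternatives). This was the 1 call in 17 alternatives, and it rests on removing the library that differed. The gene passed the filter through OXmiR400 only, which set its direction. ANAC036, whose overexpression is known to dwarf the plant, measured 11.9, 11.02 and 3.70 FPKM in OXmiR400, 5.24, 4.49 and 3.66 FPKM in OXrPPR1, and 5.28, 3.31 and 3.54 FPKM in WT. Here too OXmiR400 replicate 3 stood with the other genotypes, and the log2 fold change was 0.86 ± 0.35 (SE, adjusted p = 0.277), and 1.32 without that replicate (adjusted p = 0.0691). ANAC084 was higher by 0.34 ± 0.13 (SE, adjusted p = 0.248), with no overlap.

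**Figure D3:**
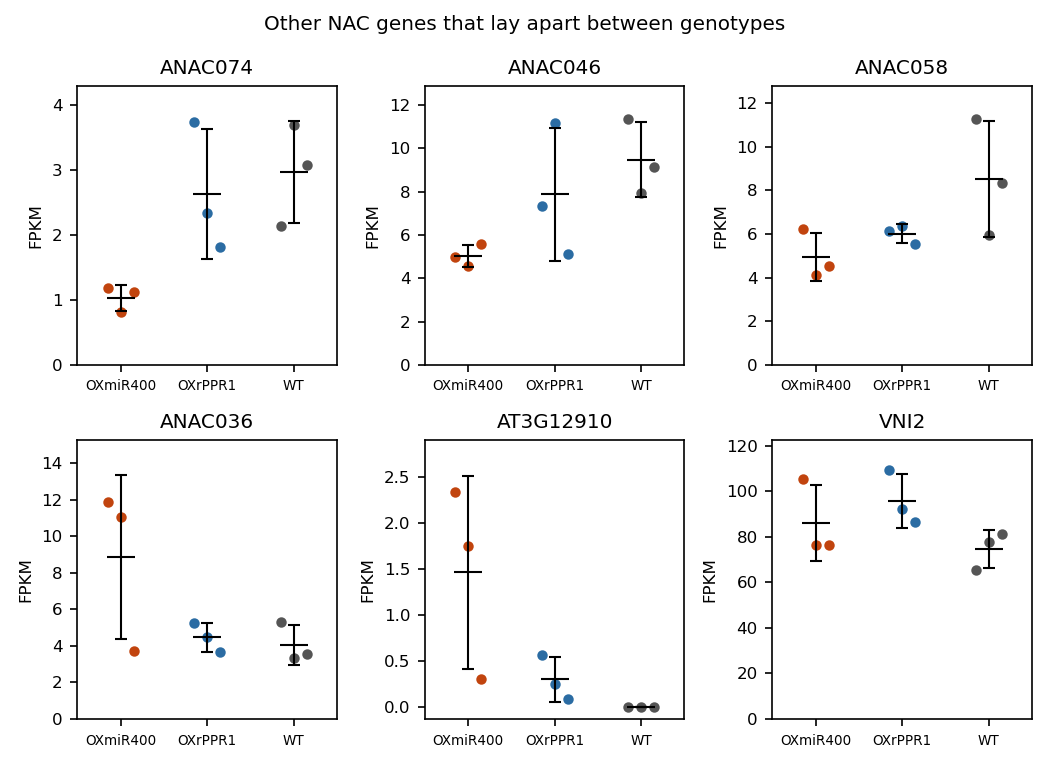
FPKM of 6 further NAC genes by genotype, with 1 point per library and the mean ± SD (n = 3). ANAC074 and ANAC046 lie lower in OXmiR400 than in WT, while ANAC036 and AT3G12910 are split within OXmiR400 by replicate 3.

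By known role, the NAC genes of the abscisic acid and dehydration response, ANAC019, ANAC055, RD26, ATAF1, ATAF2, ANAC032 and ANAC102, all had log2 fold changes below 0 in OXmiR400, 7 of 7 with a median of -0.23, also under quantile normalization and median centring. None passed the test, and only ANAC102 was past an unadjusted p of 0.05. ANAC055 measured 10.7, 17.8 and 26.3 FPKM in OXmiR400, 21.9, 40.3 and 27.0 FPKM in OXrPPR1, and 20.4, 29.0 and 23.4 FPKM in WT, and the genotypes overlapped. Of the 8 senescence members tested, 5 lay below 0 and 3 (VNI2, JUB1 and ANAC087) above. ORS1, a senescence activator, measured 21.8, 31.9 and 35.2 FPKM in OXmiR400, 39.6, 47.9 and 28.4 FPKM in OXrPPR1, and 35.4, 43.5 and 36.3 FPKM in WT, with OXmiR400 wholly below WT (-0.38 on the log2 scale, adjusted p = 0.420, and -0.18 without OXmiR400 replicate 1).

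Of the membrane-tethered members, 6 were tested and 5 lay below 0 in OXmiR400, from ANAC060 at -0.41 to ANAC016 at -0.11, while ANAC089 was at 0.0041. The secondary wall and vessel members tested, SND3, VND3, VND5 and VNI2, lay above 0, and none was past an unadjusted p of 0.05. VND5 passed the filter through OXmiR400 only, and the other 3, among them the vessel repressor VNI2, had a median of 0.45. VND3 measured 3.03, 2.15 and 3.004 FPKM in OXmiR400, 2.77, 3.58 and 2.68 FPKM in OXrPPR1, and 0.480, 3.15 and 1.94 FPKM in WT, where replicate 1 was low. Outside the family, cellulose synthase and other secondary wall and xylem genes, whose activation by NAC factors is known, showed 7 of 11 above 0 with a median of 0.030 and none called.

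NYC1, a chlorophyll b reductase among the senescence genes outside the family, was the 1 listed gene of those classes called in OXmiR400 against WT, where it lay lower. It measured 44.7, 35.0 and 39.1 FPKM in OXmiR400, 54.8, 45.7 and 40.2 FPKM in OXrPPR1, and 79.8, 80.7 and 68.4 FPKM in WT. The log2 fold change was -0.93 ± 0.14 (SE, adjusted p = 0.0248), and the call was lost without OXmiR400 replicate 1, 2 or 3 or WT replicate 1 (adjusted p = 0.0591, 0.132, 0.103 and 0.0788). Of 7 senescence genes tested, 5 lay below 0.

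In OXrPPR1 against WT, no NAC gene passed the test either, against 13 of all genes (0.0651%), and ANAC044 again had the largest fold change. This comparison uses the same WT libraries, so likeness between the lines is not independent. At an unadjusted p under 0.05 there were 8 NAC genes (15.1%, against 10.5% of all genes), 5 higher and 3 lower. The higher ones (4.81% of all genes) were ANAC044, ANAC084, VNI2, ANAC103 and ANAC085, and the lower ones (5.7%) ANAC102, AT3G12977 and NTL6. Libraries did not overlap for 12 NAC genes (22.6%, against 14.7%), 5 higher (6.36% of all genes) and 7 lower (8.33%). The higher ones include ANAC085 and AT3G12910, which were tested only because they passed the filter in OXmiR400. Without the 4 genes that passed in this way, 10 of 49 did not overlap (20.4%), 3 higher and 7 lower. Past an unadjusted p of 0.05 were then 7 of 49 (14.3%), 4 higher and 3 lower. ANAC044 was the 1 NAC gene past a log2 fold change of 1 (1.38% of all genes). It stood at 1.12 ± 0.30 (SE, adjusted p = 0.240), and at 1.502 without OXrPPR1 replicate 1 (adjusted p = 0.0533). ANAC103 and ANAC085 were at 0.43 ± 0.19 and 0.44 ± 0.20 (adjusted p = 0.469 and 0.475).

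VNI2 lay wholly above WT in OXrPPR1, by 0.35 ± 0.15 on the log2 scale (SE, adjusted p = 0.459). NTL6 measured 21.2, 17.7 and 16.1 FPKM in OXrPPR1 and 23.5, 22.7 and 22.9 FPKM in WT, without overlap, at -0.32 ± 0.14 (SE, adjusted p = 0.475). LOV1, a flowering repressor that overlaps an opposite-strand gene, ANAC016, ANAC097 and NTM2 were also wholly below WT, at adjusted p between 0.478 and 0.576. ANAC038 and the embryogenesis regulator NARS1 were among the larger differences in OXrPPR1, at -0.53 and -0.42 on the log2 scale (adjusted p = 0.478 and 0.477), with ANAC038 at -0.28 without OXrPPR1 replicate 3. The vessel and secondary wall members VNI2, SND3, VND3 and VND5 lay above 0, 4 of 4 with a median of 0.32, also with quantile normalization and median centring. VND5 was tested only because it passed the filter in OXmiR400, and the other 3 had a median of 0.35. Among these 3 is VNI2, a repressor of vessel formation. The xylem peptidase genes XCP2 and XCP1 outside the family were at 0.48 and 0.50 (adjusted p = 0.387 and 0.45). Over the whole wall and xylem list outside the family, 9 of 11 lay above 0 with a median of 0.10, and none was called. Of the membrane-tethered members 5 of 6 lay below 0, and 4 of 6 with median centring. Of the abscisic acid and dehydration members 5 of 7 lay below 0, and 3 of 7 without the 3 libraries named above. The latter count rests on OXrPPR1 replicate 2 alone. ERD1 and DREB2A, dehydration genes reported as NAC targets, were at 0.39 and -0.62 (adjusted p = 0.39 and 0.511). Log2 fold changes were below 0 for 33 of 53 NAC genes, against 54% of all genes, for 27 with quantile normalization and for 25 with median centring (50.9% and 47.2%, against 49.8% and 46.2% of all genes). Root markers summed to 87.8 to 153 FPKM in OXrPPR1, a range that held the WT sums, with 6 of 11 below 0. Without the 3 libraries named above 10 of 11 lay below 0, again with OXrPPR1 replicate 2 alone.

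**Figure D4:**
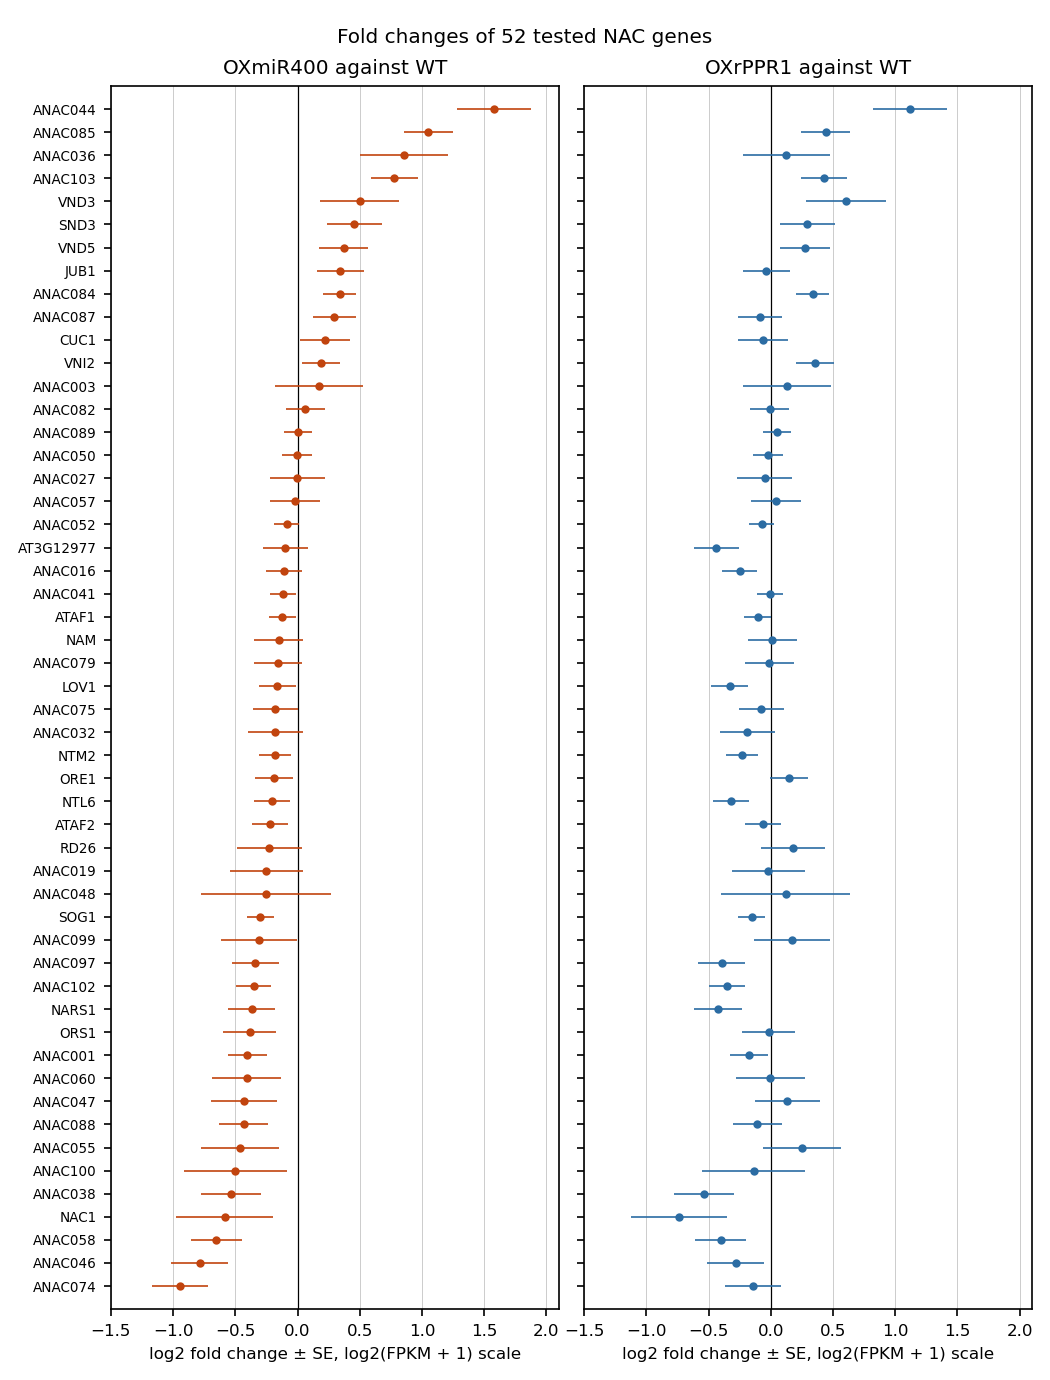
Log2 fold changes with SE of 52 tested NAC genes in OXmiR400 (left) and OXrPPR1 (right) against the same WT libraries, ordered by the left panel; AT3G12910, listed at 0 in WT, is left out. ANAC044 is at the top of both panels, at 1.58 and 1.12, and 37 and 33 of all 53 tested genes lie below 0.

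Between the lines, OXmiR400 against OXrPPR1, the test called no NAC gene and 13 of all genes (0.0651%). At an unadjusted p under 0.05 there were 4 NAC genes (7.55%, against 7.41%), with ANAC085 and AT3G12910 higher (3.34% of all genes) and ANAC074 and ANAC055 lower (4.06%) in OXmiR400. Both higher genes passed the filter through OXmiR400 only, so that without such genes 0 were higher and 2 lower. No NAC gene was past a log2 fold change of 1 (1.11% of all genes), and 29 lay below 0 (54.7%, against 49.6% of all genes). ANAC074 had the smallest p, with a log2 difference of -0.80 ± 0.22 (SE, adjusted p = 0.447), and ANAC085 was at 0.61 ± 0.20 (adjusted p = 0.534). Libraries did not overlap for 10 NAC genes (18.9%, against 13.2%), 6 higher (5.9% of all genes) and 4 lower. The higher ones were ANAC085, CUC1, ANAC087, ANAC103, ANAC016 and AT3G12977, of which ANAC085 and CUC1 passed the filter through OXmiR400 only. Without such genes 8 of 49 did not overlap (16.3%), 4 higher and 4 lower. The lower ones (7.28% of all genes) were ORE1, ANAC047, ANAC041 and ANAC074. ANAC047, which drives upward leaf bending in waterlogged plants, measured 18.1, 12.4 and 17.3 FPKM in OXmiR400, 21.6, 27.4 and 22.5 FPKM in OXrPPR1, and 14.0, 22.1 and 32.2 FPKM in WT.

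Of the 7 genes with a miR164 site, 6 were tested and none passed in any comparison, while NAC1 and ANAC100 were among the most variable of the family. NAC1, which passes on auxin signals in lateral root formation, measured 25.0, 11.3 and 25.2 FPKM in OXmiR400, 31.7, 12.5 and 12.9 FPKM in OXrPPR1, and 26.0, 29.2 and 33.8 FPKM in WT. A single OXmiR400 library and a pair of OXrPPR1 libraries were low, and the log2 fold changes against WT were -0.59 ± 0.39 and -0.74 ± 0.39 (SE, adjusted p = 0.508 and 0.552). They were -0.23 without OXmiR400 replicate 2 and -1.16 without OXrPPR1 replicate 1. ANAC100 measured 5.81, 5.43 and 4.58 FPKM in OXmiR400, 11.3, 7.30 and 4.10 FPKM in OXrPPR1, and 3.68, 12.7 and 9.77 FPKM in WT. ANAC079, its close relative, measured 6.63, 6.26 and 6.86 FPKM in OXmiR400, 9.54, 6.03 and 7.03 FPKM in OXrPPR1, and 5.44, 8.45 and 8.99 FPKM in WT. For both, the OXmiR400 libraries lay close together inside the wide range of the others. AT3G12977 measured 3.43, 3.34 and 3.13 FPKM in OXmiR400, 2.90, 2.20 and 2.16 FPKM in OXrPPR1, and 4.21, 4.29 and 2.55 FPKM in WT, with -0.44 ± 0.18 in OXrPPR1 against WT (SE, adjusted p = 0.437).

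CUC1, which founds organ boundaries with CUC2, measured 1.22, 1.22 and 1.37 FPKM in OXmiR400, 0.623, 1.08 and 0.924 FPKM in OXrPPR1, and 1.34, 1.13 and 0.481 FPKM in WT, and CUC2 lay below the filter. The precursor MIR164B measured 2.20, 1.47 and 0.999 FPKM in OXmiR400, 3.17, 0.882 and 2.37 FPKM in OXrPPR1, and 0, 1.91 and 0.756 FPKM in WT, and overlapped between genotypes. MIR164A and MIR164C were listed at or near 0, and mRNA libraries do not measure the mature microRNA.

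**Figure D5:**
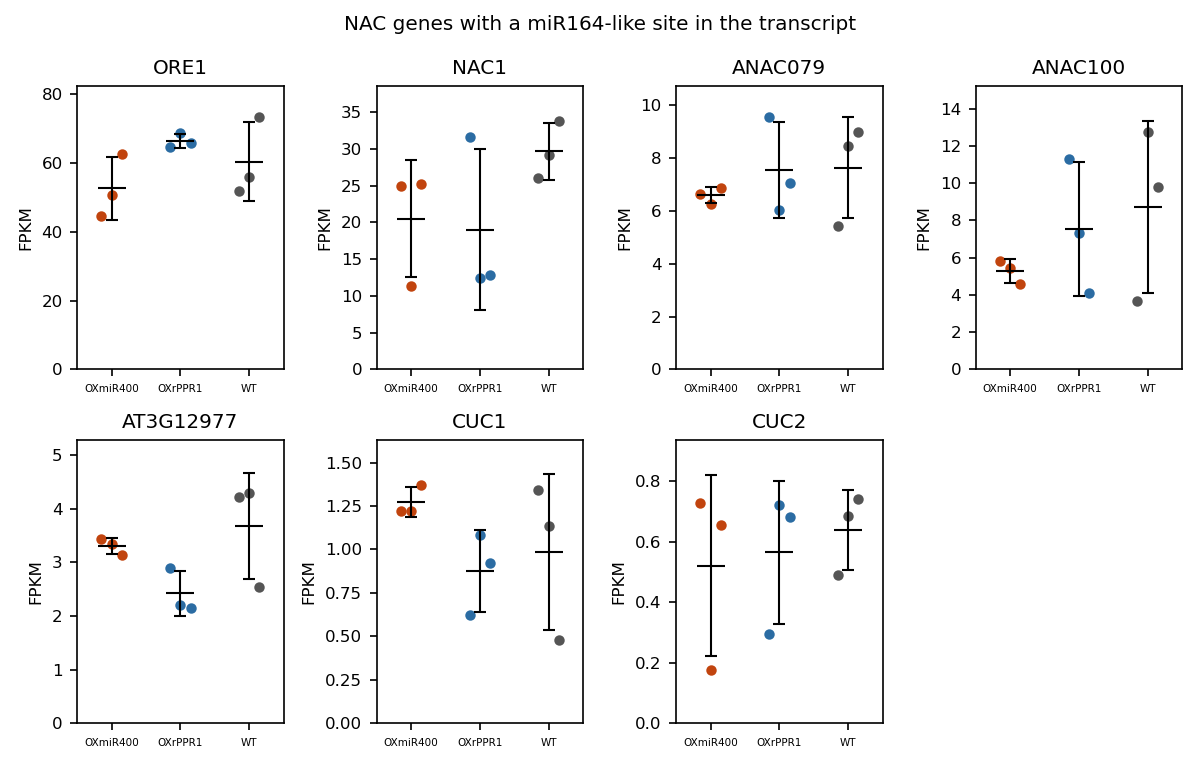
FPKM of the 7 NAC genes with a miR164 site by genotype, with 1 point per library and the mean ± SD (n = 3). Replicates of a genotype lie far apart for NAC1 and ANAC100, and no panel separates all 3 genotypes.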

How the data were processed

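RNA of seedlings was isolated with TRIzol and made into libraries with a SMARTer mRNA kit, per the labels' protocols. The deposited values are FPKM made by the authors; no header names the unit, which was inferred because FPKM multiplied by exon length in kb sums to 992900 to 998014 in each library. The 3 deposited tables are identical, so 1 was used. The submitters' processing notes name GRCm38 and mm10, mouse builds, but 26504 of 26513 matched genes have the positions of TAIR10.1 (RefSeq), used here. The sources used here give no aligner and no counting program.

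The 19955 genes averaging 1 FPKM or more in some genotype were transformed to log2(FPKM + 1), and 1 model over the 9 libraries was fitted with limma (version 3.58.1, R 4.3.3). It used robust empirical Bayes with a variance trend, Benjamini-Hochberg adjustment over every tested gene, and a call threshold of adjusted p under 0.05. Fold changes are on this log2 scale, where low genes appear to differ less than they do. Only 48.2% to 52.7% of the low values stood on whole units (within 0.0125 of a unit), so no count model was used. The method was run on simulated data, with changes planted only in genes well above the filter of 1 FPKM. Recovery of changes in low genes such as ANAC085 was not tested. Genes were named if called, if among the 8 NAC genes with the largest fold change or the 8 with the smallest p in a comparison, if among the 8 most abundant, or if among the 4 most abundant of a role list. Lists outside the family gave their called genes or else the 2 with the smallest p. Some were also named because their libraries did not overlap or their spread was extreme, after their values were seen. The members and lists were chosen with earlier results of these data known. Of the role lists' genes in the table, 11 (such as VND1, NAP and NTM1) have descriptions outside the rule and are not counted. Alternatives were quantile normalization, median centring, no filter, a filter of 5 FPKM, a pseudocount of 0.1, no variance trend, only the 6 libraries compared, a replicate block, and libraries left out. A gene of the DNA damage group outside the family is not reported here, and the counts of that group leave it out.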

Additional observations from a re-analysis of the deposited data

How the results depend on the processing

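In OXmiR400 against WT the count of NAC genes called, 0, was 1 with median centring, no filter or no variance trend, and 2 with only the 6 libraries compared or with the 6 left after the 3 that correlated best with another genotype were removed. It ranged from 0 to 2 when 1 library was left out. In the other comparisons it was 0 under every alternative run. Of the 41 fold changes followed through the alternatives, those of 2 membrane-tethered genes in OXmiR400 against WT changed sign: ANAC016 (-0.11) ranged from -0.18 to 0.0070, the last without WT replicate 1, and ANAC089 (0.0041) from -0.054 to 0.10 when 1 library was left out. Fold changes near 0 of other members, such as CUC1, were not followed gene by gene. Of all genes, 114 were called in OXmiR400 against WT, against 66 with no filter, 216 with only the 6 libraries compared, 477 without those 3 libraries and 8 to 194 with 1 library left out. For OXrPPR1 against WT 13 were called, against 8 with no filter, 39 with only the 6 libraries compared and 4 to 44 with 1 library left out. For OXmiR400 against OXrPPR1 these were 13, 10, 24 and 7 to 18. Counts without those 3 libraries are left out here, since OXrPPR1 would rest on 1 library. The cause of these shifts was not tested. Replicate numbers did not pair the samples: deviations of same-numbered samples correlated at -0.246 to 0.133. With the replicate number as a block, 0 NAC genes were called in each comparison, and 92, 10 and 7 of all genes. With 3 libraries a genotype, low genes such as ANAC085 rest on few units.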

Other observations

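Genes outside the family that are known to respond to DNA damage were looked at after the values of ANAC044 and ANAC085 had been seen. They are 6 genes with known roles in DNA repair or the cell cycle, all tested, and 6 of 6 had a log2 fold change above 0 in OXmiR400 against WT, with a median of 0.57, while 53.1% of all genes lay below 0. At an unadjusted p under 0.05 there were 4 higher (CYCB1;1, TSO2, BRCA1 and SMR4), against 6.71% of all genes, and none passed the adjusted threshold in limma (adjusted p = 0.0688 to 0.531). CYCB1;1, a mitotic cyclin that is also induced by DNA damage, measured 7.03, 7.63 and 10.95 FPKM in OXmiR400, 4.85, 7.82 and 8.37 FPKM in OXrPPR1, and 4.27, 2.98 and 3.44 FPKM in WT. TSO2, a ribonucleotide reductase subunit, measured 29.1, 40.8 and 40.7 FPKM in OXmiR400, 32.2, 69.1 and 32.6 FPKM in OXrPPR1, and 15.1, 19.5 and 17.2 FPKM in WT. For both genes every library of either line lay above every WT library, and the same held for BRCA1 and SMR7. SMR4 did so in OXmiR400 and overlapped WT in OXrPPR1. Over all genes tested, 10.8% lay wholly above WT in OXmiR400 and 6.36% in OXrPPR1. Both lines are set against the same WT libraries. SMR7, an inhibitor of cyclin-dependent kinases, measured 3.45, 5.44 and 5.90 FPKM in OXmiR400, 9.03, 15.3 and 6.56 FPKM in OXrPPR1, and 3.04, 2.63 and 3.23 FPKM in WT, with OXrPPR1 highest (log2 fold change 1.44 ± 0.27 against WT, SE, adjusted p = 0.104). PARP2, a repair gene, overlapped between OXmiR400 and WT. These values are a description, since the genes were chosen with the values in view.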
